A study of Mus musculus with 10 samples.

Results

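The 35 genes described here are interferon-stimulated genes, a set of transcripts that cells switch on when they sense type I interferon. They were chosen by symbol from the deposited count table, which lists 53546 genes, and all 35 were in it. All 35 also had enough counts to be tested, among 14023 genes that did. The counts come from bulk RNA sequencing of CNS-associated macrophages, the resident macrophages of the brain's borders, sorted from the brains of individual C57BL/6N mice aged 6 to 8 weeks that received no treatment. A group of 4 mice carried Mrc1-CreERT2 on both chromosomes (Mrc1-CreERT2/Mrc1-CreERT2, homozygous, replicates 1 to 4). Another 3 mice carried it on a single chromosome (Mrc1-CreERT2/wt, heterozygous, replicates 1, 2 and 4), and 3 mice were wild type (replicates 1 to 3). The allele carries CreERT2, a Cre recombinase that enters the nucleus when it binds tamoxifen, and its name places it at Mrc1, which encodes CD206, a mannose receptor that these macrophages make. The question was whether interferon-stimulated transcripts differed with the number of copies of the allele.

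Type I interferons bind a receptor made of IFNAR1 and IFNAR2, whose kinases JAK1 and TYK2 then phosphorylate STAT2. The ISGF3 complex, which holds STAT2 and IRF9, binds a short DNA element, the interferon-stimulated response element (ISRE), in the promoters of its target genes. The products sense foreign nucleic acid, block viral translation and entry, and feed back on the pathway. Macrophages also express many of these genes at a low resting level.

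Many promoters of these genes hold the element through which the set is known to be switched on. RefSeq promoters on GRCm38.p6, each covering 250 bases before and 50 after a gene's start, were found for 25 of the 35 genes. They were searched on both strands for the core of the ISRE, a GAAA block followed by any 2 bases and another GAAA block (TTTC blocks when read on the other strand). It was present in 17 of the 25 genes (68.0%) and in 3.99% of all 27025 genes with a promoter in the table. Another element, TTC and GAA separated by any 3 bases, known as GAS, was present in 6 of the 25 genes (24.0%) and in 9.55% of all genes. An ISRE match overlapped a GAS match in 2 places. The ISRE core was not found in the windows of Irf7, Irf9, Ifit2, Oasl2, Cmpk2, Ifi35, Ifi44 and Xaf1. A match describes the letters only. The 4 sequences here are examples from genes with more than 1 copy of the core upstream of the start: Isg15 because its copies overlap, and 3 Ifit genes because they hold the same pair of copies at different distances from the start. They are the bases before the start, 5′ to 3′ in the direction of the gene, with the core on either strand in capitals. Isg15 is at chr4:156200819-156201068 (minus strand), Ifit1 at chr19:34640639-34640888, Ifit3 at chr19:34583279-34583528 and Ifit3b at chr19:34607707-34607956 (all 3 on the plus strand).
Isg15: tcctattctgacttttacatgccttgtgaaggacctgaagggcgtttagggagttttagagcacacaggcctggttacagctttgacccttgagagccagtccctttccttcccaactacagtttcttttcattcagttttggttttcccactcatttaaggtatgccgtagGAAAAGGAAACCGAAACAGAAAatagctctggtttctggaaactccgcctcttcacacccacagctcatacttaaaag
Ifit1: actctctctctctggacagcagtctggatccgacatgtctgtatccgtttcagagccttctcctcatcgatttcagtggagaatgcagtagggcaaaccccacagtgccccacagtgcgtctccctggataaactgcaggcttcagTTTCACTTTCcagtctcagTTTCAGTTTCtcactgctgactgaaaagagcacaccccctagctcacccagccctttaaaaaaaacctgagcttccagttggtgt
Ifit3: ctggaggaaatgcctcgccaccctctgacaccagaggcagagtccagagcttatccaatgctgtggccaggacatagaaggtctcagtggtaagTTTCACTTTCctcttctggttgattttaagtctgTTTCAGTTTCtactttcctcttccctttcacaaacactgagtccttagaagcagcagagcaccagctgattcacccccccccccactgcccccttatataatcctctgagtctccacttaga
Ifit3b: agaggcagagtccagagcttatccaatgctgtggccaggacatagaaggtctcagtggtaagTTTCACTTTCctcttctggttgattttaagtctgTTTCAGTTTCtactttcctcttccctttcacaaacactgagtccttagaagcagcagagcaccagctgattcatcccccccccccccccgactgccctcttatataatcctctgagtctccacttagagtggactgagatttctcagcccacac
The cores of Isg15 began 78, 72 and 66 bases before the start and those of Ifit1 began 104 and 85 bases before it. In Ifit3 they began 156 and 122 bases before the start, and in Ifit3b 188 and 154 bases before it. In all 3 Ifit genes the letters of the pair were GAAAGTGAAA and GAAACTGAAA, read on the minus strand.

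The total count of a library lay between 27358042 and 36575446 in homozygotes, between 22986972 and 32326603 in heterozygotes and between 28668839 and 32931690 in wild-type mice. Levels are in counts per 1000000 counts of a library (CPM), after scaling by the trimmed mean of M values. Mrc1 checked the labels: it averaged 3481 ± 365 CPM in wild-type (SD, n = 3), 2153 ± 154 in heterozygous (n = 3) and 489 ± 48.6 in homozygous mice (n = 4), and no library of a genotype overlapped another genotype. A list of 14 markers of CNS-associated macrophages, Mrc1 among them, was summed in each library. The sum was 18600 to 20200 CPM in wild-type, 17800 to 21100 in heterozygous and 21200 to 22800 in homozygous mice. The fall of Mrc1 is part of these sums. Of the 14 markers only Mrc1 was fitted lower in homozygotes than in wild type, and the median log2 fold change was 0.42. A list of 12 microglial markers summed to 9010 to 18500 CPM, so microglial transcripts were present as well. All pairs of libraries of a genotype differed beyond sampling noise (chi-square divided by the number of genes, 91.7 to 213), so none was the same library sequenced again. This check cannot tell separate mice from separate libraries of the same mouse.

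Per kilobase of exon, a measure that allows for gene length, the most abundant transcripts were those of small membrane proteins. The length was that of all annotated exons of a gene together, which can exceed that of the transcripts made, so the ranking depends in part on the annotation. Ifitm3, which blocks viral fusion, averaged 1090 CPM per kb over the 10 libraries. Ifi27l2a, a small interferon-induced membrane protein, averaged 730 CPM per kb and Bst2, the virus tether tetherin, 573. The next levels were those of Rtp4 at 102, Ifit3 at 95.3 and Isg15 at 78.5 CPM per kb. The lowest were Mx1 at 1.92, Oas3 at 1.86, Ifi44 at 1.33 and Mx2 at 1.25 CPM per kb. Mx1 and Mx2 each had 0 counts in 2 libraries and Ifi44 in 1, and their fold changes had the widest errors. Reads of some members cannot be assigned with certainty. Of the 50-base stretches of Ifit3 transcripts, 51.2% also occur in Ifit3b, and 57.6% of those of Oas1a occur in Oas1g. For Ifi203, Ifi204, Rtp4, Ifi35 and Ifitm3 the share that occurs in other genes was 10 to 20%. The library kit did not mark the strand, so reads of antisense genes are not separated either.

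The main feature of these genes was that their levels varied together from mouse to mouse, also among mice of the same genotype. Each library was given a score, the mean over the 35 genes of log2 CPM after each gene's own mean had been subtracted. Wild-type replicate 1 scored 0.91, far above wild-type replicates 2 and 3 at -0.20 and -0.03. Heterozygous replicate 4 scored 0.32 against -0.36 and -0.30 in heterozygous replicates 1 and 2. Homozygous replicates 3 and 4 scored 0.20 and 0.16, homozygous replicate 1 scored -0.09, and homozygous replicate 2 was the lowest of all at -0.61. The score averaged 0.23 ± 0.60 in wild-type, -0.12 ± 0.38 in heterozygous and -0.08 ± 0.37 in homozygous mice, so the genotypes overlapped, and their means differed by less than the SD within any of them. Summed CPM of the 35 genes gave 6636, 4249 and 4687 in wild-type replicates 1 to 3, 3809, 3312 and 5693 in heterozygous replicates 1, 2 and 4, and 3607, 3118, 4733 and 4133 in homozygous replicates 1 to 4. Wild-type replicate 1 and heterozygous replicate 4 were therefore the highest on both scales.

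**Figure D1:**
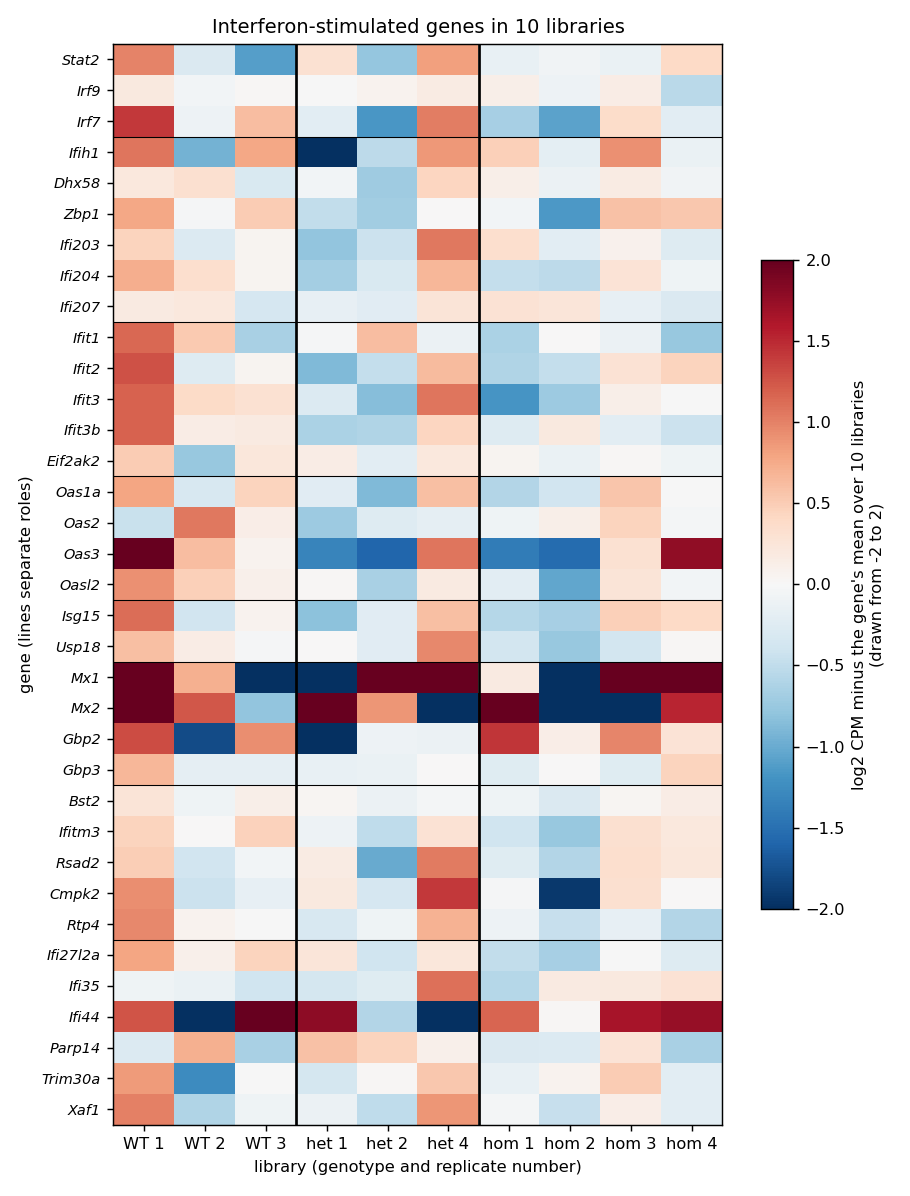
Colour map of the 35 genes (rows, grouped by role) in 10 libraries (columns, by genotype and replicate). Colour is log2 CPM minus the gene's own mean over the 10 libraries, drawn from -2 to 2, with red above and blue below the mean. The columns of wild-type replicate 1 (score 0.91) and heterozygous replicate 4 (0.32) are mostly red and that of homozygous replicate 2 (-0.61) is mostly blue.

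Wild-type replicate 1 had the highest level of 23 of the 35 genes, while it was the highest library for 13.7% of all genes tested. Heterozygous replicate 4 was the highest for 6 of the 35, against 11.4% of all genes. They were the top 2 libraries for 17 of the 35, against 3.29% of all genes. Within wild type, replicate 1 was above replicate 2 for 31 genes (46.4% of all genes) and above replicate 3 for 32 (44.2%). Within heterozygotes, replicate 4 was above replicate 1 for 29 genes (46.6%) and above replicate 2 for 30 (45.3%). Within homozygotes, replicate 3 was above replicate 1 for 29 genes (51.7%) and above replicate 2 for 29 (51.1%).

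Correlations between the genes describe the same pattern. Over the 595 pairs of the 35 genes, the median Pearson r of log2 CPM across the 10 libraries was 0.393, and 82.4% of pairs were above 0. The median over all pairs of the genes tested was 0.00515. After each genotype's mean had been subtracted, so that only differences between mice of a genotype were left, the median was 0.443 for the 35 genes and 0.00415 for all genes. All these values rest on the same 10 libraries, and the median pairwise r was 0.253 without wild-type replicate 1 and 0.138 without both wild-type replicate 1 and heterozygous replicate 4.

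The genes were not equally tied to the rest. Each was correlated with the mean of the other 34, and the median r was 0.646. Isg15, a ubiquitin-like protein that is attached to other proteins, had the highest value at 0.92, and Ifit2, which binds viral RNA, followed at 0.91. Xaf1, a promoter of cell death, stood at 0.84, Irf7, the transcription factor that amplifies the interferon response, at 0.83, and Zbp1, a sensor of Z-form nucleic acid, at 0.81. No other gene was above 0.8. At the other end 4 genes were below 0: Mx2 at -0.02, Ifi44 at -0.12, Oas2 at -0.20 and Parp14, an ADP-ribosyltransferase, at -0.31. Without wild-type replicate 1 and homozygous replicate 2, the libraries farthest from the middle of the score, the median was 0.48. Isg15 then stood at 0.90 and Ifit2 at 0.92, whereas Ifi27l2a went from 0.66 to 0.07 and Rtp4 from 0.73 to 0.29.

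Comparing homozygous with wild-type mice, 32 of the 35 genes were fitted lower in homozygotes, against 48.9% of all genes tested, but none of them passed the test. Their median log2 fold change was -0.39 (median SE 0.39), against 0.02 over all genes, with a range from -1.51 for Mx2 to 0.26 for Ifi35. The test was the quasi-likelihood test of edgeR, adjusted after Benjamini and Hochberg across the 14023 genes. It called 9 genes (0.0642%) and 0 of the 35, whose smallest adjusted p was 0.391. At an unadjusted p under 0.05 edgeR gave 4 of the 35, all lower in homozygotes (Ifi27l2a, Rtp4, Oasl2 and Ifit3), against 2.96% of all genes. With DESeq2 1 of the 35 was called, Ifi27l2a, among 287 genes (2.14%), and with limma-voom 0 of the 35 among 10 genes (0.0713%). The difference moved most with wild-type replicate 1: without it 18 of the 35 genes were fitted lower (45.6% of all genes) and their median log2 fold change was -0.01. It was -0.24 without homozygous replicate 2, -0.26 without homozygous replicate 1 and -0.59 without wild-type replicate 2. In bulk samples, fewer cells of a type and less RNA per cell cannot be told apart.

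Levels of markers of other cells are given beside these results. Microglial markers summed to 10300 to 18500 CPM in wild-type, 12000 to 14900 in heterozygous and 9010 to 11500 in homozygous mice, and 10 of 12 were fitted lower in homozygotes (Cx3cr1, which other brain macrophages express too, at -0.17 on the log2 scale, and Fcrls at 0.19). Monocyte markers summed to 75.7 to 200 CPM in wild-type, 49.1 to 68.0 in heterozygous and 5.72 to 17.5 in homozygous mice. Of the 10 monocyte markers, 3 (Chil3, Ly6c1 and F10) had 0 counts in every library, and the 4 that were tested were fitted lower in homozygotes. Ccr2, the chemokine receptor of monocytes, was called lower (log2 fold change -4.18, SE 0.36, edgeR adjusted p = 0.00216). B cell markers summed to 503 to 772, 365 to 480 and 272 to 436 CPM in the same order, and 6 of 7 tested were fitted lower in homozygotes (Ighm at -0.93, SE 0.20, edgeR adjusted p = 0.276). In wild-type replicate 1 these 3 sums were 10300, 75.7 and 503 CPM, in each case the lowest of the wild-type libraries, while the 35 genes were at their highest there. Across the 10 libraries the r of the log2 sum with the score was -0.02 for microglial, 0.21 for monocyte and 0.19 for B cell markers. Without wild-type replicate 1 and homozygous replicate 2, the libraries farthest from the middle of the score, these were 0.165, -0.394 and -0.326. Over all 10 libraries and then without those 2, the r was -0.534 and -0.302 for T and NK cell markers, -0.485 and -0.206 for dendritic cell markers, and 0.41 and -0.193 for oligodendrocyte markers. It was 0.0195 and 0.732 for markers of CNS-associated macrophages and -0.0987 and -0.759 for genes of dissociation stress. The largest part of the T and NK cell sum was Cd4 (mean 139 CPM, r -0.753 with the score over all 10 libraries). Cd3e, Cd3d, Cd3g, Trac, Trbc2, Nkg7 and Lck, at means of 3.28 to 6.35 CPM, went the other way, with an r of 0.112 to 0.576. Klrb1c had an r of -0.17. The part of any of these lists in the results was not tested. The score had an r of -0.525 (rho -0.345) with the total count of a library, and heterozygous replicate 4, with the second highest score, was the shallowest at 22986972 counts. The part of depth was not tested either.

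**Figure D2:**
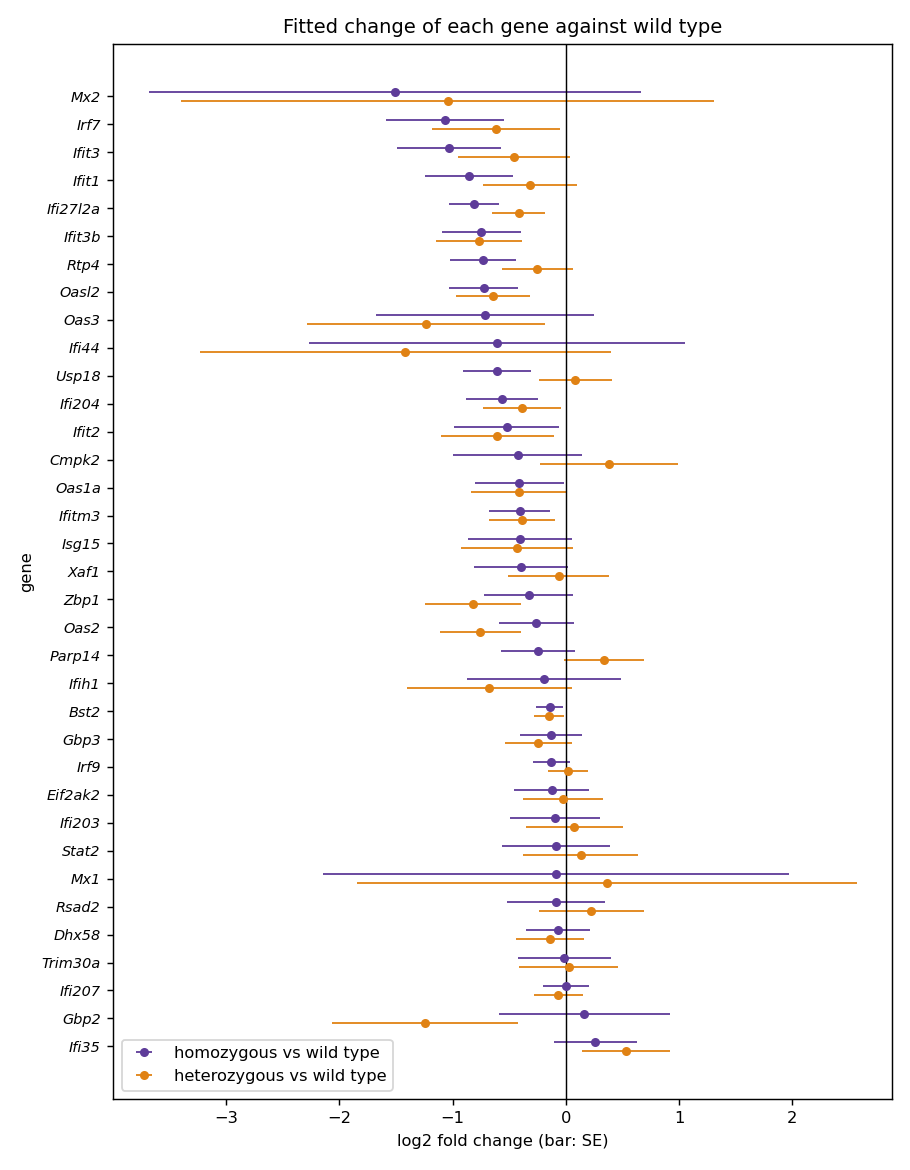
Fitted log2 fold change of each of the 35 genes in homozygous (purple) and heterozygous (orange) against wild-type mice. Points are edgeR estimates, bars are SE, and genes are ordered by the homozygous value, from -1.51 (Mx2) at the top to 0.26 (Ifi35) at the bottom. Most points lie left of 0, and both comparisons share the 3 wild-type libraries.

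Ifi27l2a had the smallest p of the 35. It stood at 558, 348 and 441 CPM in wild-type replicates 1 to 3, 384, 246 and 379.1 in heterozygous replicates 1, 2 and 4, and 229, 205, 321 and 269 in homozygous replicates 1 to 4. All 4 homozygous libraries were below all 3 wild-type libraries, and the heterozygous libraries overlapped both. Its log2 fold change in homozygotes was -0.81 (SE 0.22, edgeR adjusted p = 0.391). The DESeq2 adjusted p was 0.0126, the lowest over the alternatives, whose adjusted p reached 0.701. Leaving out wild-type replicate 1 gave -0.62 (edgeR adjusted p = 0.639). The 3 genes whose homozygous and wild-type libraries did not overlap were Ifi27l2a, Rtp4 and Ifit3, all lower in homozygotes, against 3.57% of all genes.

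All 5 membrane and nucleotide effectors were fitted lower in homozygotes, with a median log2 fold change of -0.41. Rtp4, a chaperone of receptors, stood at 402, 216 and 205 CPM in wild-type replicates 1 to 3, 165, 194 and 331 in heterozygous replicates 1, 2 and 4, and 192, 149, 184 and 136 in homozygous replicates 1 to 4. Wild-type replicate 1 and heterozygous replicate 4 were high and the other 8 libraries lay close together. Its log2 fold change in homozygotes was -0.73 (SE 0.29, edgeR adjusted p = 0.639) and -0.34 without wild-type replicate 1. Ifitm3 stood at 969, 715 and 984 CPM in wild-type replicates 1 to 3, 665, 501 and 870.3 in heterozygous replicates 1, 2 and 4, and 541.5, 420.1, 890.4 and 827 in homozygous replicates 1 to 4. Bst2 was much steadier, at 618, 487 and 559 CPM in wild-type replicates 1 to 3, 529.6, 473 and 501 in heterozygous replicates, and 486, 421, 529.6 and 571 in homozygous replicates. For Ifitm3 homozygous replicates 3 and 4 reached wild-type levels, and for Bst2 all genotypes overlapped. Rsad2 (viperin) and Cmpk2, which act on nucleotides, gave log2 fold changes of -0.08 and -0.42 in homozygotes.

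**Figure D3:**
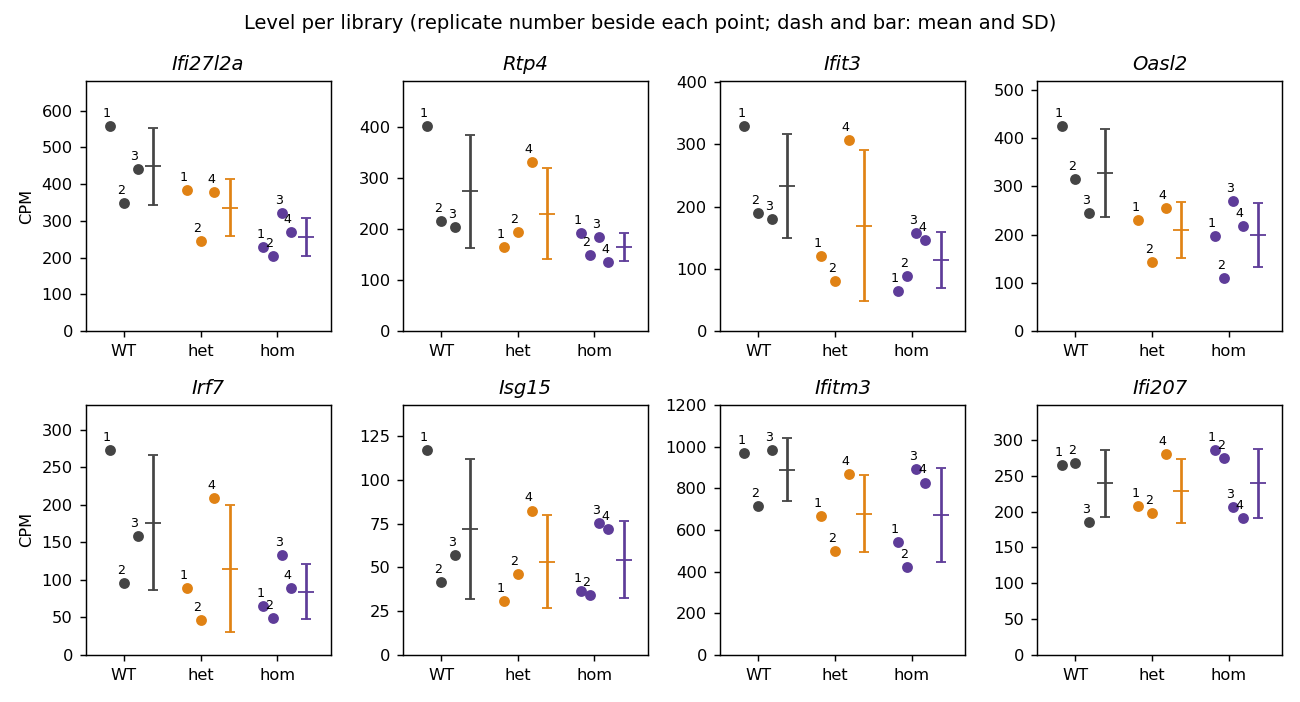
Level in CPM of 8 of the genes in each library, by genotype, with the replicate number above each point and the mean and SD beside each group (n = 3, 3 and 4). Wild-type replicate 1 (558 CPM for Ifi27l2a, 117 for Isg15) and heterozygous replicate 4 (331 CPM for Rtp4, 307 for Ifit3) lie above most of their group in several panels.

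Among the Ifit genes and Eif2ak2, whose products bind RNA and hold back translation, all 5 were fitted lower in homozygotes, with a median log2 fold change of -0.75. Ifit3 stood at 329, 189.9 and 179.7 CPM in wild-type replicates 1 to 3, 121, 80.8 and 307 in heterozygous replicates 1, 2 and 4, and 64.3, 88.0, 158 and 145.5 in homozygous replicates 1 to 4. Ifit2 stood at 189, 65.1 and 81.1 CPM in wild-type, 42.4, 56.3 and 121 in heterozygous, and 51.5, 56.5, 95.8 and 107 in homozygous replicates, in the same order. Of the 7 libraries with the allele, only heterozygous replicate 4 had more Ifit3 than wild-type replicates 2 and 3, and the Ifit2 groups overlapped. The log2 fold change in homozygotes was -1.03 for Ifit3 (SE 0.46, edgeR adjusted p = 0.659), -0.85 for Ifit1, -0.75 for Ifit3b, -0.52 for Ifit2 and -0.12 for Eif2ak2, the kinase PKR. For Ifit2 it was 0.09 when wild-type replicate 1 was left out.

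The oligoadenylate synthetases make a messenger that activates RNase L, and all 4 were fitted lower in homozygotes, with a median log2 fold change of -0.56. Oasl2, a related protein, stood at 424, 315 and 244 CPM in wild-type replicates 1 to 3, 229.9, 144 and 255 in heterozygous replicates 1, 2 and 4, and 196, 110.2, 269 and 218 in homozygous replicates 1 to 4. Oas1a stood at 194, 89.3 and 152 CPM in wild-type, 95.7, 60.7 and 169 in heterozygous, and 74.7, 85.6, 164 and 112 in homozygous replicates, in the same order. Of the homozygous libraries only replicate 3 reached into the wild-type range of Oasl2, whereas Oas1a overlapped throughout. Oasl2 gave a log2 fold change of -0.72 (SE 0.30, edgeR adjusted p = 0.654) and Oas1a of -0.41. Oas2 and Oas3 gave -0.26 and -0.71.

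The ISG15 system holds Isg15 and Usp18, the protease that removes ISG15 and dampens the receptor. Isg15 stood at 117, 41.6 and 57.1 CPM in wild-type replicates 1 to 3, 30.7, 46.5 and 82.5 in heterozygous replicates 1, 2 and 4, and 36.5, 34.3, 75.2 and 71.7 in homozygous replicates 1 to 4. Usp18 stood at 144, 106 and 93.3 CPM in wild-type, 95.7, 81.5 and 186 in heterozygous, and 74.1, 56.5, 74.2 and 96.4 in homozygous replicates, in the same order. Isg15 overlapped in all genotypes, and Usp18 was highest in heterozygous replicate 4. The log2 fold change in homozygotes was -0.40 for Isg15 (SE 0.46) and -0.605 for Usp18 (SE 0.30). For Isg15 it was 0.15 without wild-type replicate 1.

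Among the signal transducers and transcription factors, Irf7 varied most. It stood at 273, 95.8 and 159 CPM in wild-type replicates 1 to 3, 89.1, 46.2 and 209.7 in heterozygous replicates 1, 2 and 4, and 64.8, 49.1, 133.5 and 88.7 in homozygous replicates 1 to 4. Irf9 stood at 205, 171 and 182 CPM in wild-type, 178, 187 and 199.96 in heterozygous, and 194, 166, 197 and 124 in homozygous replicates, in the same order. Irf7 thus differed 5.92-fold between its highest and lowest library and Irf9 1.65-fold, and neither separated the genotypes. The log2 fold change in homozygotes was -1.07 for Irf7 (SE 0.52, edgeR adjusted p = 0.696), -0.13 for Irf9 (SE 0.16) and -0.09 for Stat2 (SE 0.48). That of Irf7 was -0.59 without wild-type replicate 1.

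Of the 6 nucleic acid sensors 5 were fitted lower in homozygotes, with a median log2 fold change of -0.14. Ifi204, a DNA-binding protein of the HIN-200 family, stood at 314, 242 and 199 CPM in wild-type replicates 1 to 3, 119.5, 155 and 304 in heterozygous replicates 1, 2 and 4, and 136.5, 133, 232 and 179 in homozygous replicates 1 to 4. Ifi207, of the same family, stood at 265, 268 and 186 CPM in wild-type, 208, 198 and 280.0 in heterozygous, and 286, 275, 207 and 191 in homozygous replicates, in the same order. Ifi207 differed only 1.54-fold between its highest and lowest library and did not follow the other genes (r 0.08 with their mean). The log2 fold change in homozygotes was -0.57 for Ifi204 (SE 0.32) and 0.00 for Ifi207 (SE 0.20). It was -0.33 for Zbp1, -0.19 for Ifih1, which senses double-stranded RNA, -0.10 for Ifi203 and -0.07 for Dhx58.

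The GTPases gave no common direction beyond their error. Gbp2, a guanylate-binding protein that acts on pathogen vacuoles, stood at 92.4, 10.8 and 71.8 CPM in wild-type replicates 1 to 3, 4.55, 34.8 and 34.5 in heterozygous replicates 1, 2 and 4, and 101, 40.9, 73.8 and 45.5 in homozygous replicates 1 to 4. Gbp3 stood at 69.0, 38.6 and 38.7 CPM in wild-type, 39.3, 39.98 and 44.2 in heterozygous, and 36.97, 44.1, 37.01 and 59.9 in homozygous replicates, in the same order. Gbp2 differed 22.1-fold between its highest and lowest library and overlapped between homozygous and wild-type mice, and Gbp3 was high in wild-type replicate 1 and homozygous replicate 4. Their log2 fold changes in homozygotes were 0.16 (SE 0.76) and -0.13 (SE 0.28). Mx1 and Mx2, of a dynamin-like family, gave -0.09 (SE 2.06) and -1.51 (SE 2.17).

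Of the remaining genes, Trim30a, a TRIM protein that restrains inflammatory signalling, stood at 277, 64.3 and 153 CPM in wild-type replicates 1 to 3, 121, 157 and 225 in heterozygous replicates 1, 2 and 4, and 139, 162, 219 and 133 in homozygous replicates 1 to 4. All homozygous and heterozygous values lay between those of wild-type replicates 2 and 1. The log2 fold change in homozygotes was -0.01 (SE 0.41) and became 0.59 without wild-type replicate 1. Xaf1 gave -0.39, Parp14 -0.25, Ifi44 -0.61 (SE 1.66) and Ifi35 0.26.

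In heterozygous against wild-type mice, 25 of the 35 genes were fitted lower in heterozygotes, against 49.1% of all genes, and none passed the test. The median log2 fold change was -0.32, against 0.01 over all genes. EdgeR called 0 of the 35 and 0 genes in all (0%), with 816 genes at an unadjusted p under 0.05. None of the 35 was among the 2.4% of genes that were lower at that level. DESeq2 called 0 of the 35 among 229 genes (1.71%), and limma-voom called 0 genes. The smallest edgeR adjusted p of the 35 was 0.791. All 4 oligoadenylate synthetase genes were fitted lower (median -0.70), as were all 5 of the Ifit genes with Eif2ak2 (median -0.46). Zbp1 was fitted at -0.82 (SE 0.42) and Oas2 at -0.76 (SE 0.36). Ifi35 was fitted at 0.53 (SE 0.39) and Cmpk2 at 0.38 (SE 0.61). No gene of the 35 had every heterozygous library below every wild-type library, which 4.16% of all genes did. Single libraries moved this comparison both ways. The median was 0.01 without wild-type replicate 1, and 16 genes were fitted lower (46.8% of all genes). Without heterozygous replicate 4 it was -0.58 and 34 genes were fitted lower (49.8% of all genes). Without heterozygous replicate 1 or 2 it was -0.20 or -0.15.

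Between homozygous and heterozygous mice most differences were smaller than their error. Of the 35 genes, 21 were fitted lower in homozygotes, against 49.1% of all genes, with a median log2 fold change of -0.10. EdgeR called 0 of the 35 among 3 genes (0.0214%). At an unadjusted p under 0.05, 1 of the 35 was lower, Usp18 (log2 fold change -0.69, SE 0.30, edgeR adjusted p = 1), against 2.2% of all genes. DESeq2 called 0 of the 35 among 128 genes (0.954%) and limma-voom 0 of the 35 among 2 genes (0.0143%). No gene of the 35 had every homozygous library below every heterozygous library, against 3.72% of all genes. In the other direction, every homozygous library was above every heterozygous one for Gbp2 and Oas2. Gbp2 stood at 40.9 to 100.6 against 4.55 to 34.8 CPM (log2 fold change 1.405, SE 0.79). Oas2 stood at 44.4 to 64.1 against 28.4 to 41.4 CPM (0.495, SE 0.34). The share of all genes separated in that direction was not counted, so nothing about the 35 genes as a set can be read from these 2. The direction turned without heterozygous replicate 4: the median was then 0.24, and 9 genes were fitted lower (47.5% of all genes). It was -0.26 without heterozygous replicate 2, -0.18 without heterozygous replicate 1 or homozygous replicate 3, and -0.05 without homozygous replicate 2. With wild-type replicate 1 left out, which this comparison does not use directly, 21 genes were fitted lower (48.3% of all genes).

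With both wild-type replicate 1 and heterozygous replicate 4 left out, the genes fitted lower numbered 18 of 35 for homozygous against wild type (46.2% of all genes), 24 for heterozygous against wild type (48% of all genes), 9 for homozygous against heterozygous (47.8% of all genes) and 17 for the slope per allele copy (47.5% of all genes). With only heterozygous replicate 4 left out, homozygous against wild type had 33 genes fitted lower (48.5% of all genes).

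**Figure D4:**
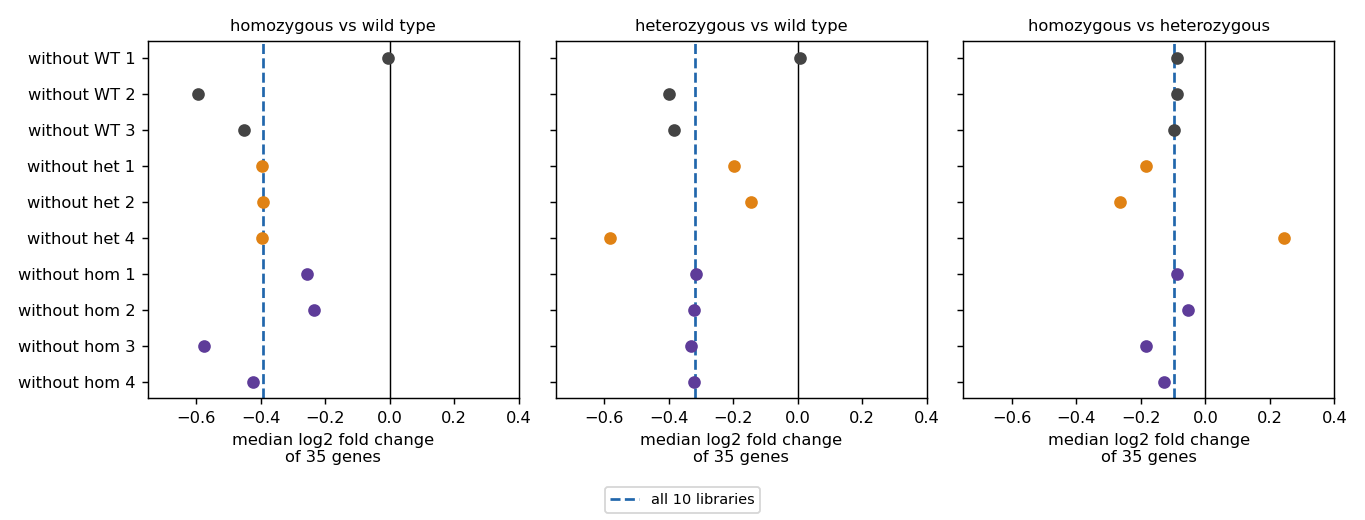
Median log2 fold change of the 35 genes in each comparison after leaving out each library in turn (points, coloured by the genotype of the library left out), with the value over all 10 libraries as a dashed line. The homozygous against wild-type median goes from -0.39 to -0.01 without wild-type replicate 1, and the homozygous against heterozygous median from -0.10 to 0.24 without heterozygous replicate 4.

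A stepwise pattern, with mean CPM highest in wild-type, intermediate in heterozygous and lowest in homozygous mice, was shown by 11 of the 35 genes, against 16.3% of all genes. They were Irf7, Ifi204, Ifit1, Ifit3, Eif2ak2, Oasl2, Mx2, Ifitm3, Rtp4, Ifi27l2a and Xaf1. Another 12 genes were lowest in heterozygotes with wild type highest, among them Isg15, Ifit2, Oas1a and Zbp1. A further 9 were highest in heterozygotes and lowest in homozygotes, among them Usp18, Rsad2 and Cmpk2. Ifi207 and Gbp2 were highest in homozygotes, and Ifi35 was highest in heterozygotes and lowest in wild type. A fit of log2 level on the number of copies (0, 1 or 2) over all 10 libraries gave slopes below 0 for 32 of the 35 genes (49.1% of all genes), with a median of -0.19 per copy. EdgeR called 0 of the 35 among 6 genes (0.0428%). At an unadjusted p under 0.05, 5 of the 35 had a falling slope (Ifi27l2a, Rtp4, Oasl2, Ifit3 and Ifit1), against 2.54% of all genes. Ifi27l2a fell by 0.41 per copy on the log2 scale (SE 0.10, edgeR adjusted p = 0.353), Rtp4 had a slope of -0.37 (SE 0.14) and Oasl2 of -0.35 (SE 0.15). DESeq2 called 1 of the 35 among 179 genes (1.34%), again Ifi27l2a (adjusted p = 0.0156), and limma-voom called 0 of the 35 among 12 genes (0.0856%). Without wild-type replicate 1 the median slope was -0.01 per copy and 18 genes sloped down (47.7% of all genes), whereas 32 did so without heterozygous replicate 4 (48.8% of all genes). It was -0.12 without homozygous replicate 2 and -0.29 without homozygous replicate 3.

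Other genes of the pathway were read from lists. Of 11 interferon genes, 10 had 0 counts in all 10 libraries, which allows at most 0.0817 to 0.130 CPM in a library (3 counts, counting error only), and Ifnk had 11 counts in heterozygous replicate 1. None of the 5 tested receptor genes was called in any comparison by edgeR. Of these, Ifngr1 averaged 1350 ± 288 CPM in wild-type, 1230 ± 83.5 in heterozygous and 1310 ± 69.5 in homozygous mice. Il10rb averaged 682 ± 48.2, 674 ± 64.5 and 707 ± 43.7 CPM in the same order. The summed receptor transcripts were 2890 to 3290 CPM, with 2890 in wild-type replicate 1 and 3000 in heterozygous replicate 4, so they were not raised in the libraries where the 35 genes were high. Jak1, a kinase of the receptor, averaged 285 ± 114, 268 ± 5.57 and 282 ± 30.2 CPM. Of 12 tested genes of interferon induction 7 were fitted lower in homozygotes than in wild type, of 6 further interferon regulatory factors 5 and of 6 negative regulators 4, and edgeR called none of these. Irf8, a transcription factor of macrophage identity, averaged 487 ± 18.7 CPM in wild-type, 383.1 ± 39.5 in heterozygous and 369 ± 55.1 in homozygous mice (log2 fold change in homozygotes -0.40, SE 0.13, edgeR adjusted p = 0.558). Irf5, which acts downstream of Toll-like receptors, averaged 329 ± 67.9, 294 ± 52.8 and 222 ± 52.2 CPM (-0.57, SE 0.21, edgeR adjusted p = 0.624). Tlr7, a sensor of single-stranded RNA, averaged 274 ± 25.6, 375 ± 19.5 and 358 ± 65.2 CPM (0.39, SE 0.14, edgeR adjusted p = 0.624). Sting1, the adaptor of cytosolic DNA sensing, averaged 351 ± 58.9, 405 ± 28.7 and 319 ± 26.0 CPM. The negative regulators Ptpn6 and Irf2bp2 had log2 fold changes of -0.18 (SE 0.18) and 0.51 (SE 0.23).

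A list of 48 further type I interferon-stimulated genes varied along with the 35. Their summed level was 7090 CPM in wild-type replicate 1 and 5670 in heterozygous replicate 4. It was 5070 and 4950 in wild-type replicates 2 and 3, 4390 and 4600 in heterozygous replicates 1 and 2, and 4030 to 4980 CPM in the homozygous libraries. Apart from the 2 highest libraries, the genotypes lay close together. Across the 10 libraries the log2 of this sum had an r of 0.948 and a rho of 0.867 with the score of the 35, and an r of 0.786 without the farthest 2 libraries. These are libraries of the same mice, so the 2 measures share depth and sample. Of the 45 that were tested, 34 were fitted lower in homozygotes than in wild type (median -0.35) and 32 in heterozygotes (median -0.29), and edgeR called none. Lgals3bp, a secreted glycoprotein with the highest mean CPM of them, averaged 890 ± 119 CPM in wild-type, 633 ± 147 in heterozygous and 686 ± 98.8 in homozygous mice (log2 fold change in homozygotes -0.38, SE 0.17, edgeR adjusted p = 0.663). Ccl12, a chemokine, averaged 569 ± 353, 668 ± 309 and 452 ± 188 CPM. Genes known mainly as targets of interferon gamma had an r of 0.524 between the log2 of their sum and the score, and of 0.227 without the farthest 2 libraries. Of these 19 tested genes, 11 were fitted lower in homozygotes (median -0.06), and edgeR called none. Psmb8 of the immunoproteasome averaged 422 ± 10.8, 362 ± 49.3 and 382.9 ± 51.0 CPM, and the GTPase Igtp 234 ± 48.05, 205 ± 17.4 and 222 ± 100 CPM.

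**Figure D5:**
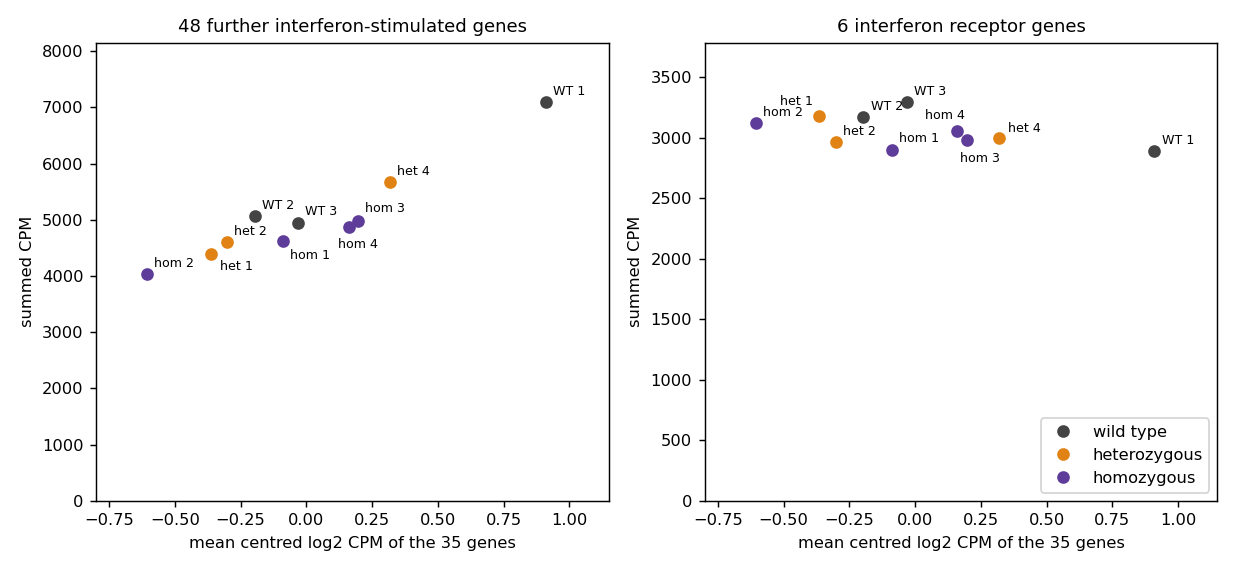
Summed CPM of 48 further interferon-stimulated genes (left) and of 6 interferon receptor genes (right) against the score of the 35 genes, 1 point per library, coloured by genotype. On the left the sum goes from 4030 CPM in homozygous replicate 2 to 7090 CPM in wild-type replicate 1. On the right it stays between 2890 and 3290 CPM.

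Outside the set, 8101 genes with a mean of at least 10 CPM were ranked by their r with the score of the 35 over the 10 libraries. The highest were Xpo7 at 0.945, Acadvl at 0.944, Trim12a at 0.924, Sec24c at 0.918, Pomgnt1 at 0.917, Sqstm1 at 0.907, Ifi213 at 0.903, Suco at 0.902, Slfn1 at 0.898 and Tmem229b at 0.896. Of these, Ifi213 and Slfn1 were on the list of further interferon-stimulated genes. Above 0.8 were 32 of the 8101 (0.395%). Without wild-type replicate 1 and homozygous replicate 2, the r of the 10 named genes ranged from 0.66 for Ifi213 to 0.913 for Acadvl. They are the top of a ranking of 8101 genes over only 10 libraries, and the share that chance would place above 0.8 was not estimated.

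Sample titles carry a letter, m or f, which the labels do not explain. Heterozygous replicate 4, homozygous replicates 3 and 4 and wild-type replicate 3 carry f. With genotype in the fit, 30 of the 35 genes were fitted higher in the f libraries, against 51.7% of all genes, with a median log2 difference of 0.33. EdgeR called 0 of the 35 among 3 genes (0.0214%), and 5 of the 35 were higher in f at an unadjusted p under 0.05, against 3.1% of all genes. The smallest adjusted p was that of Ifitm3 (log2 difference 0.59, edgeR adjusted p = 0.668). Wild-type replicate 1, the library with the highest score, carries m. Wild-type and heterozygous mice each had a single f library. A difference between the letters in the genotype effect, which was also fitted, therefore cannot be judged.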

How the data were processed

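The series measured messenger RNA by bulk sequencing in sorted CNS-associated macrophages from 10 mice of 3 genotypes. The authors deposited whole-number read counts per gene symbol. Per the labels' protocols, cDNA was made from 500 pg of RNA with a SMARTer Ultra Low Input kit and Nextera XT, in 1 batch. Per the submitters' processing notes, bcl2fastq 2.20, STAR 2.7.8a and featureCounts 2.0.2 were used. The genome build, annotation, strand setting, treatment of multi-mapping reads and sort gate were not given in the sources used here.

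From the counts, genes were kept by filterByExpr (minimum count 10, total 15), scaled by trimmed mean of M values, and tested with edgeR 4.0.16 in R 4.3.3 (quasi-likelihood, robust, all 10 libraries, with genotype, or the number of allele copies, in the model). Benjamini-Hochberg adjustment ran over 14023 genes, and called means an adjusted p under 0.05. Log2 CPM for scores and correlations used a prior count of 2. Correlations are descriptions, given without a p. Levels per kilobase used exon lengths, and shared 50-base stretches used transcripts, from GENCODE vM21, which may not be the authors' annotation. Promoters came from RefSeq on GRCm38.p6, for 25 of 35 genes. Intervals and floors cover counting error only, since the reads carry no molecular identifiers.

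The 35 genes, the gene lists and the tests were chosen with earlier results of these data known. Per-library values are given for the 2 genes of each role with the highest mean CPM (not per kilobase), those called, and the 3 with the smallest p in homozygotes and in the slope; from each pathway list the 2 genes with the highest mean CPM and any called are named, except 1 gene that is not reported here. Alternatives were DESeq2 size factors, no or a stricter count filter, DESeq2 1.42.0, limma-voom (limma 3.58.1), estimation without the robust option, a term for the title letter, a block for the replicate number, only 2 genotypes in the fit, and each library left out. The fit without wild-type replicate 1 and heterozygous replicate 4 together, the letter's own coefficient and its interaction with genotype were added after seeing the data. The test script was checked on simulated counts. Figures were drawn with matplotlib.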

Additional observations from a re-analysis of the deposited data

Results flagged for a closer look

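Stat2, which encodes a transcription factor of the ISGF3 complex, had 1 homozygous library far from the others. Homozygous replicate 4 stood at 101 CPM, while the other 3 homozygous libraries stood at 69.5, 70.1 and 73.2 CPM, a gap of 0.882 of the group's range. Groups of 4 libraries were checked this way for 37 values (Mrc1, the 35 genes and the score), and chance flags about 1 in 20.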

How the results depend on the processing

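No gene of the 35 was called in any comparison under any of the 20 alternatives (19 for the slope), except Ifi27l2a with DESeq2, which gives 1 called gene for homozygous against wild type and 1 for the slope. The number of genes called in all went from 9 to 287 with DESeq2 for homozygous against wild type, from 0 to 229 for heterozygous against wild type, from 3 to 128 for homozygous against heterozygous and from 6 to 179 for the slope; with limma-voom it was 10, 0, 2 and 12. Homozygous against wild type also gave 17 with the title letter in the fit, 2 with only those genotypes, and 2 to 12 with each library left out (2 without wild-type replicate 1). Homozygous against heterozygous gave 1 with the title letter, without robust estimation or with only those genotypes, and 1 to 2 with each library left out. The slope gave 2 to 6 with each library left out. Leaving out each library in turn, the median log2 fold change ranged from -0.59 to -0.01 for homozygous against wild type, from -0.58 to 0.01 for heterozygous against wild type and from -0.26 to 0.24 for homozygous against heterozygous, and the median slope from -0.29 to -0.01. The median pairwise correlation ranged from 0.253 to 0.460. Without wild-type replicate 1 and heterozygous replicate 4 together these values were -0.01, -0.33, 0.24, 0.03 and 0.1385. The other alternatives gave -0.53 to -0.23, -0.42 to -0.24, -0.12 to -0.02, -0.25 to -0.12 and 0.389 to 0.443.

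The same replicate numbers recur across genotypes, but libraries with the same number did not deviate together (r -0.0118 to 0.0347 over all genes). No pairing of mice by number was thus seen, though a pairing that touched few genes would not show in this r. With the replicate block the medians were -0.53, -0.34 and -0.10 and the slope -0.25, with 0 of the 35 called and 1, 0, 1 and 0 genes called in all.

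Among 17 genes given library by library, 316 of 340 values of the homozygous against wild-type change kept their direction and side of the threshold, and 23 changed sign. The sign changes lie in Gbp2, Gbp3, Ifi207, Ifit2, Isg15 and Trim30a. Leave-one-out ranges were -0.33 to 0.67 for Gbp2, -0.31 to 0.21 for Gbp3, -0.15 to 0.0947 for Ifi207, -0.80 to 0.0917 for Ifit2, -0.68 to 0.15 for Isg15 and -0.40 to 0.59 for Trim30a. Without the 2 libraries together Gbp3 was at 0.21, Ifit2 at 0.0911, Isg15 at 0.15 and Trim30a at 0.59. Ifi207 was at -0.0196 with DESeq2 size factors and with DESeq2, at -0.0043 with limma-voom and at -0.0111 with the replicate block. Trim30a was at 0.23 with limma-voom and at 0.0707 with the replicate block. The cause was not tested. A p that misses the threshold does not show equal levels, and counts at or near 0 limit Mx1, Mx2 and Ifi44.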
